A study of Mus musculus with 19 samples.

Results

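The genes described here are 10 transcription factor genes of the AP-1, EGR and NR4A families, namely Fos, Fosb, Fosl2, Jun, Junb, Jund, Atf3, Egr1, Egr2 and Nr4a1, in mouse natural killer (NK) cells given interleukin-2 (IL-2) with or without an inhibitor of a Janus kinase (JAK). They were found by symbol in the array's probe-set annotation. All 10 were present, each with 1 probe set (the group of probes that reports a transcript), among 19752 genes that have a probe set with a single symbol.

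NK cells were taken by negative selection from spleens of male C57BL/6 mice aged 6 weeks and were profiled in 19 samples with Affymetrix Mouse Gene ST arrays. Untreated cells (3 samples) received no IL-2 and no inhibitor, and IL-2 cells (4 samples) received IL-2 at 250 U/ml for 8 h. All inhibitor groups also received IL-2 at 250 U/ml for 8 h. The JAK3 inhibitor was given at 0.25, 1 or 4 µM (2 samples each), and the JAK1 inhibitor at 0.25 or 1 µM (2 samples each) or at 0.0625 or 4 µM (1 sample each). The inhibitors are known here by target and code number only, and no group received inhibitor without IL-2. Of the untreated samples, replicate 2 has no culture time in its label. The labels do not say whether replicates came from separate mice or cultures, so the p-values speak only to variation among these samples, part or all of which may be technical. The number of arrays limits the precision.

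AP-1 is a dimer of basic leucine zipper proteins in which a Jun protein pairs with a Fos, ATF or Jun protein and binds DNA. EGR proteins are zinc finger factors and NR4A proteins are orphan nuclear receptors, and the genes of both families are classic early targets of MAP kinase and calcium signals in lymphocytes. In NK and T cells, IL-2 binds a receptor whose common gamma chain carries JAK3 and whose beta chain carries JAK1. Those kinases activate STAT5 and, through adaptor proteins, the Ras and MAP kinase pathway that many of these genes answer to.

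The DNA just upstream of 4 members is shown, because Jun and Egr2 moved with IL-2 whereas Fos and Nr4a1 did not pass that test with all 19 samples. Nr4a1 did pass when untreated replicate 2 was left out, so the split is not firm. The letters are the 250 bases before an annotated start site, read on the gene's strand, 5′ to 3′, from RefSeq (GRCm38.p6): Jun chr4:95052223-95052472 (minus strand), Egr2 chr10:67537619-67537868 (plus), Fos chr12:85473640-85473889 (plus) and Nr4a1 chr15:101266596-101266845 (plus). Capitals mark letters that match a motif searched on both strands.
Jun: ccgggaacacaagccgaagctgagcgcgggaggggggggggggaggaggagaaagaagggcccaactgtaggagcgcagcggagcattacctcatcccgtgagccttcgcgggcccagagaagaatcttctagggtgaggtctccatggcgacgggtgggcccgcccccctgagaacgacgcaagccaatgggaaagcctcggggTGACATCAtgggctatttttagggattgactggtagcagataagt
Egr2: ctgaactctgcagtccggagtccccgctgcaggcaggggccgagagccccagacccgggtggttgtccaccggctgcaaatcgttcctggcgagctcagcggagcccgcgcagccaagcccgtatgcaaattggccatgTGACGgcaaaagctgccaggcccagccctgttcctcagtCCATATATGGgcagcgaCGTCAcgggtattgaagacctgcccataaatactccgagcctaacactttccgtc
Fos: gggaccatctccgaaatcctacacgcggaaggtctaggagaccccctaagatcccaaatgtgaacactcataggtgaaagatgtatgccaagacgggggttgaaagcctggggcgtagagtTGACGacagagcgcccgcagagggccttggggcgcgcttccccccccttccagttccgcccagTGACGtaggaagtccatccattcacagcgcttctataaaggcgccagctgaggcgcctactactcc
Nr4a1: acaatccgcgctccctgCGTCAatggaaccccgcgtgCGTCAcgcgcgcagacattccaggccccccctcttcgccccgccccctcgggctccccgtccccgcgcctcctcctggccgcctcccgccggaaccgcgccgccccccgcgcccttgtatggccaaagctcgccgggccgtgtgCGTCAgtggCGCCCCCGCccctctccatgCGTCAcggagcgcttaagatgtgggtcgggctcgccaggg

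The Jun window holds TGACATCA, the Jun-type variant of the AP-1 element, 45 bases before the start site, and 2.93% of 32851 RefSeq promoter windows of the same length hold it. The Egr2 window holds a CArG box, the element read by serum response factor, 72 bases before the start site, which 1.47% of all windows hold. It also holds the short CRE motif TGACG at 111 and 55 bases. Fos holds TGACG at 129 and 66 bases, and Nr4a1 holds it 4 times. That motif is common: 17.8% of all windows have it. The EGR motif GCGNGGGCG was found in Nr4a1, Fosl2 and Fosb, and in 4.7% of all windows. Of the 9 members searched (13 windows in all, 5 of them Egr2's), none held the AP-1 element TGANTCA (6.75% of all windows) or the STAT motif TTCNNNGAA (7.02%). None held the full ATF/CRE element TGACGTCA (1.55%), which contains the short one. Egr1 was left out of the search, so its motifs are not known here. The Egr2 window printed was chosen among its 5 as the first by position with the most motif matches, while Jun, Fos and Nr4a1 had 1 window each. Shares of all windows are per window, so they do not measure how rare a match is for Egr2. These are letters in 1 window of each start site and do not show binding. Bases further upstream than 250 or after the start site were not searched. A motif missing here may therefore still be present near the gene.

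The samples lay on 2 intensity scales: 7 samples had median log2 values of 7.49 to 7.59 and the other 12 of 5.70 to 5.90. In the first set, 20.0% of probe sets carried one identical value in 3 or more samples, against 0.0% in the second. Every group except the JAK3 inhibitor at 4 µM and the JAK1 inhibitor at 0.0625 and 4 µM had samples in both sets. The fit therefore had a term for the set, and levels below are log2 intensities on the scale of the low-intensity set, with each gene's fitted difference between sets removed. Levels of different genes come from different probe sets and are not compared. Beside the NK label stand 14 NK markers, all measured, whose mean log2 level lay between 7.66 and 9.27 in single samples. No reference level was at hand, so this does not show purity. In untreated samples the mean lay at 8.93 to 9.22 for 11 B cell markers and 8.29 to 8.65 for 14 neutrophil markers. For 12 T cell markers it lay at 6.56 to 6.98. Markers of other cells also moved. The mean of 14 macrophage and monocyte markers lay at 6.20 to 6.48 in the 4 IL-2 samples and at 7.39 to 7.70 in the 3 untreated samples, while the NK marker mean lay at 8.89 to 9.27 and 7.66 to 7.91. No marker was at 0, since the lowest intensity in the table was 3.19. In bulk samples such as these, fewer cells of a type and less RNA per cell cannot be told apart. JAK3 inhibitor 4 µM replicate 1 differed from its partner, with a T cell marker mean of 6.09 against 7.01 and a neutrophil marker mean of 7.71 against 8.53. Values without that sample, or without untreated replicate 2, stand beside the results whose call they changed and beside some others.

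IL-2 raised 4 of the 10 members above untreated cells: Jun, Egr1, Egr2 and Fosl2. No member fell. Across all 19752 genes, 6.56% rose by the same test (limma, Benjamini-Hochberg adjusted p under 0.05). The median log2 difference of the 10 members was 0.40, against -0.01 for all genes. Unadjusted p was under 0.05 for 6 of the 10. Here and below, the share of all genes with an unadjusted p under 0.05 was not counted. Such member counts therefore have no background to be read against. The same 4 genes were higher in every IL-2 sample than in every untreated sample, as were 10.4% of all genes, and Atf3 was lower in every IL-2 sample, as were 4.80% of all genes. Beside these changes, 11 of 14 NK markers rose and 5 of 9 heat shock genes rose. The macrophage and monocyte list (14 markers) had 9 falls and 1 rise, and 8 of 14 neutrophil markers (median -0.69) and 4 of 11 B cell markers fell. Their part in the members' changes was not tested.

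**Figure D1:**
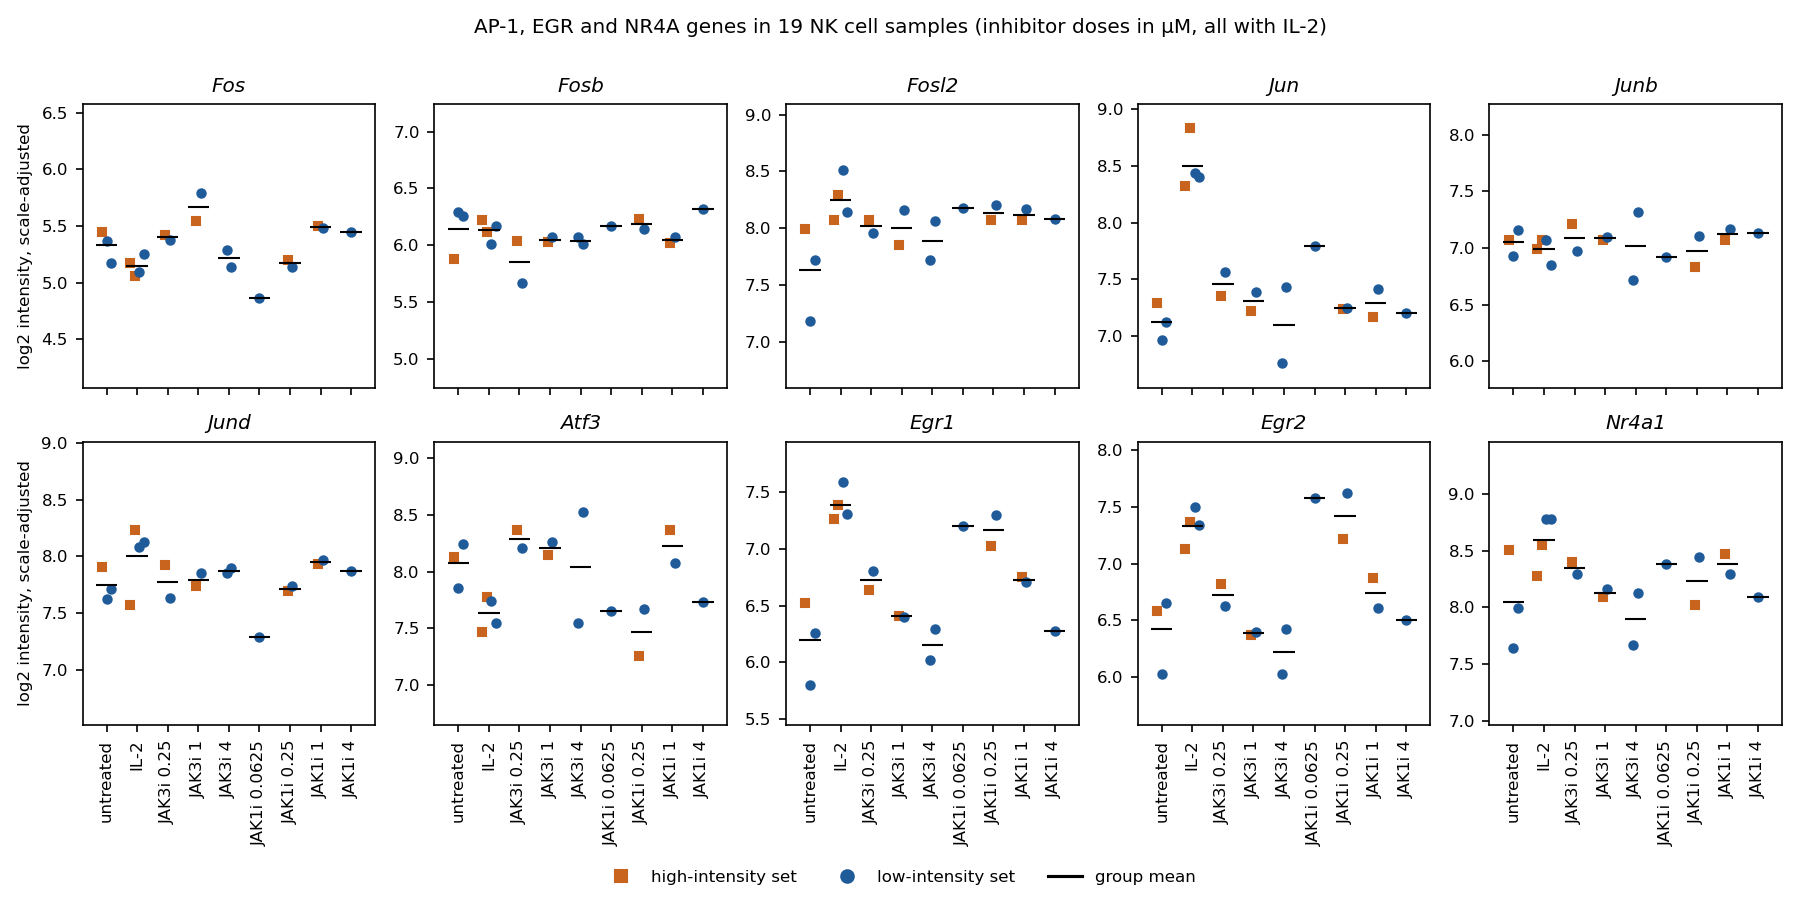
Scale-adjusted log2 intensity (y axis, the same span of log2 units in each panel) of the 10 genes in 19 samples by treatment group (x axis, inhibitor doses in µM). Squares are samples of the high-intensity set, circles those of the low-intensity set, and black bars group means. Jun is highest in the IL-2 samples, at 8.32 to 8.83, and next in the single JAK1 inhibitor 0.0625 µM sample at 7.79, whereas Egr1 and Egr2 are also high with the JAK1 inhibitor at 0.0625 and 0.25 µM.

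Jun encodes the main transactivating AP-1 subunit (probe set 10514466). Its log2 level was 7.29, 6.96 and 7.12 in untreated replicates 2, 3 and 4. In IL-2 replicates 1 to 4 it was 8.32, 8.83, 8.44 and 8.40, so the groups were well apart. The log2 difference was 1.38 ± 0.17 (SE, adjusted p = 9.18e-06). The deposited log2 values differed by 1.29 within the high-intensity set and by 1.38 within the low-intensity set. Without untreated replicate 2 the rises of Jun, Egr1 and Egr2 were 1.49, 1.41 and 1.02 (adjusted p = 1.89e-05, 4.52e-06 and 0.000927).

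Egr1, a zinc finger factor (probe set 10454782), was at 6.52, 5.80 and 6.26 in the untreated samples and at 7.26, 7.39, 7.59 and 7.31 with IL-2. It rose by 1.20 ± 0.16 (SE, adjusted p = 2.34e-05), and by 0.81 and 1.42 within the high- and low-intensity sets. Egr2, its close relative (probe set 10363735), was at 6.58, 6.03 and 6.65 without IL-2 and at 7.13, 7.37, 7.50 and 7.34 with it. The rise was 0.91 ± 0.17 (SE, adjusted p = 0.000831), with 0.67 and 1.08 within the sets. For both genes the untreated samples varied more than the IL-2 samples, with SDs of 0.36 and 0.34 (n = 3) against 0.14 and 0.15 (n = 4), and replicate 3 was the lowest.

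Fosl2 encodes the Fos-family subunit Fra-2 (probe set 10520862). Untreated samples read 7.99, 7.18 and 7.72 and IL-2 samples 8.07, 8.29, 8.51 and 8.14, so that the highest untreated sample, replicate 2, lay just under the lowest IL-2 sample. The difference was 0.62 ± 0.17 (SE, adjusted p = 0.0255), with 0.19 and 0.87 within the high- and low-intensity sets. This call depended on single samples. It was lost without IL-2 replicate 2 (0.61, adjusted p = 0.0636) or 3 (0.52, 0.138) and without untreated replicate 3 (0.40, 0.135) or 4 (0.67, 0.0516), while without untreated replicate 2 the rise was 0.86 (adjusted p = 0.00217).

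Nr4a1, the orphan receptor Nur77 (probe set 10427035), missed the threshold with 0.55 ± 0.19 (SE, adjusted p = 0.0824). Untreated replicates 2, 3 and 4 were at 8.51, 7.64 and 7.99, against 8.28, 8.55, 8.78 and 8.78 with IL-2. The untreated sample of the high-intensity set thus lay among the IL-2 samples, and the difference was -0.10 within that set and 0.97 within the low-intensity set. Without untreated replicate 2, the sample with no stated culture time, Nr4a1 passed (0.86, adjusted p = 0.00266), and without IL-2 replicate 1 it did too (0.66, adjusted p = 0.0341).

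The other 5 members did not pass. Atf3, a stress-induced bZIP factor that often represses (probe set 10361091), was at 8.13, 7.86 and 8.24 untreated and at 7.47, 7.78, 7.74 and 7.55 with IL-2. Its difference was -0.44 ± 0.19 (SE, adjusted p = 0.191), with -0.51 and -0.41 within the high- and low-intensity sets. Jund (probe set 10572456) differed by 0.26 ± 0.15 (SE, adjusted p = 0.413) and Fos (probe set 10397346), the founding Fos subunit, by -0.19 ± 0.11 (SE, adjusted p = 0.428). Fosb (probe set 10560481) and Junb (probe set 10580282) differed by -0.01 ± 0.13 and -0.06 ± 0.15. The 95% intervals were -0.42 to 0.05 for Fos, -0.29 to 0.26 for Fosb and -0.37 to 0.25 for Junb, none of which reaches the lowest bound of the Jun rise, 1.03. These intervals concern 8 h of IL-2 only, and earlier times were not measured. Fos was dim, at 5.06 to 5.25 with IL-2, below the sample medians of 5.70 to 5.90 in the low-intensity set.

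**Figure D2:**
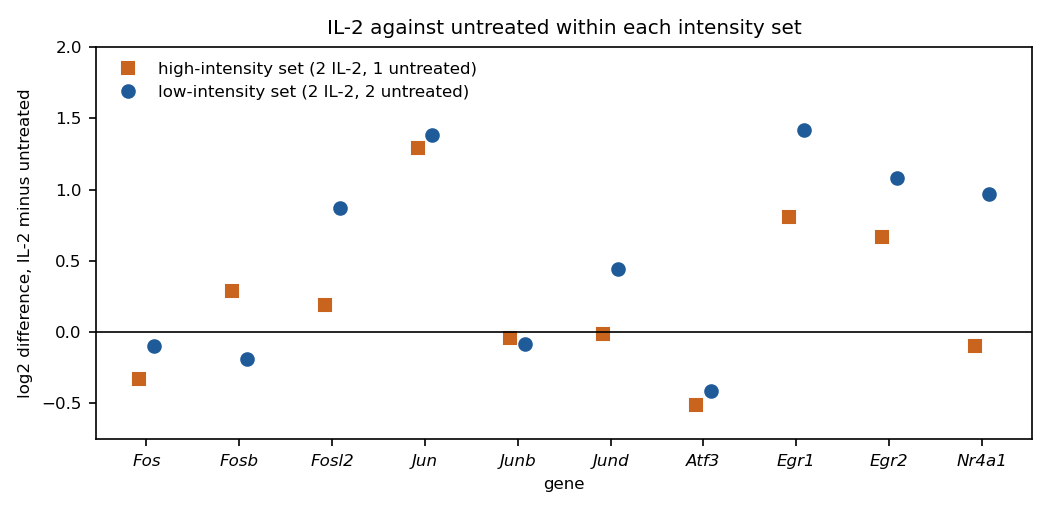
Log2 difference between IL-2 and untreated samples (y axis) for each gene (x axis) from the deposited values within the high-intensity set (squares, 2 IL-2 samples and 1 untreated) and the low-intensity set (circles, 2 and 2). Jun, Egr1, Egr2 and Fosl2 are above 0 and Atf3 below 0 in both sets, while Nr4a1 is at -0.10 in the high-intensity set and 0.97 in the low-intensity set.

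Each inhibitor group was compared with the same 4 IL-2 samples, so these comparisons share their controls and their errors. With the JAK3 inhibitor, 2 members fell at 0.25 µM (Jun and Egr1), as did 2.26% of all genes. At 1 µM 3 members fell (Jun, Egr1 and Egr2), as did 3.69% of genes, and Fos rose, as did 2.86%. At 4 µM Jun, Egr1 and Egr2 fell, as did 4.50% of genes. With the JAK1 inhibitor no member passed at 0.0625 µM, where 0.0203% of genes passed in either direction. Unadjusted p there was under 0.05 for 2 members, with the share of all genes not counted. Jun fell at 0.25 µM, as did 1.52% of genes. Jun and Egr1 fell at 1 µM, as did 2.31%, and at 4 µM, as did 2.63%. Members' median log2 differences from IL-2 were -0.25, -0.23 and -0.24 for the 3 JAK3 inhibitor doses and -0.13, -0.15, -0.11 and -0.15 for the 4 JAK1 inhibitor doses, against medians between -0.10 and 0.08 for all genes. For the 2 doses with 1 sample, the spread is borrowed from the other groups.

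**Figure D3:**
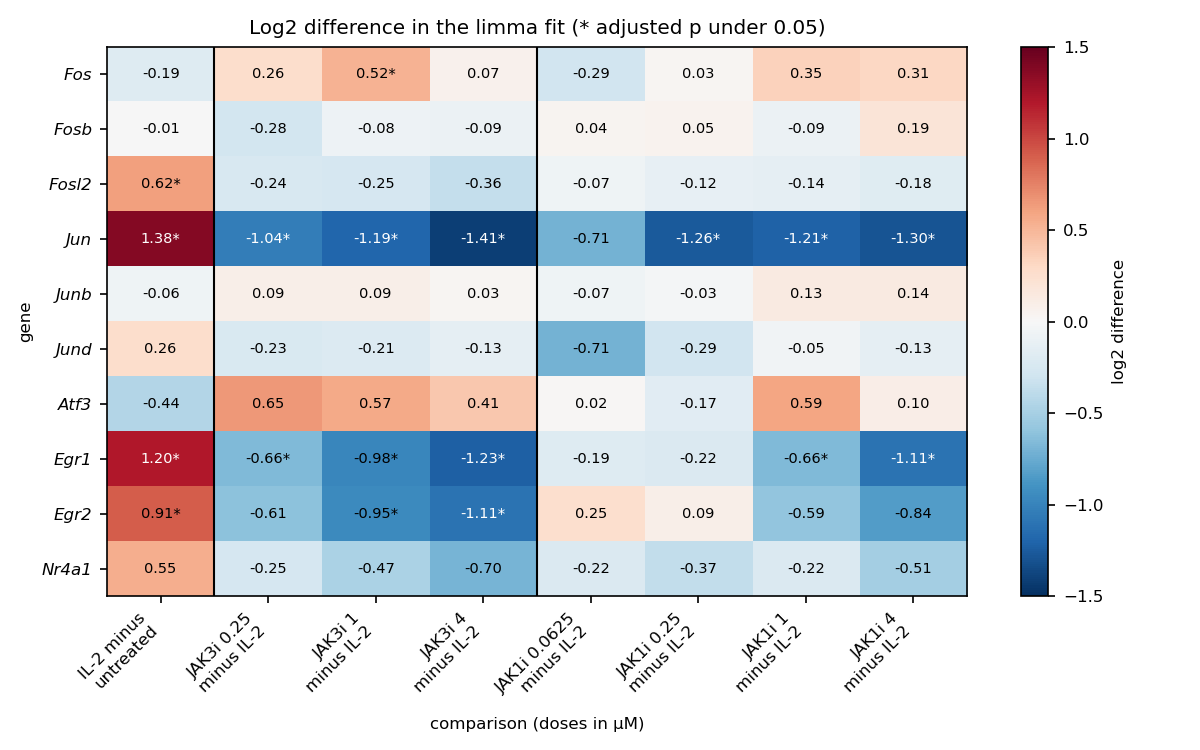
Log2 difference in the limma fit (colour and number, red higher and blue lower) of each gene (rows) in IL-2 against untreated and in each inhibitor dose against IL-2 (columns), where an asterisk marks an adjusted p under 0.05. Jun falls at 6 of the 7 inhibitor groups and Fosb, Junb, Jund, Atf3 and Nr4a1 have no asterisk in any column.

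Jun was lowered by both inhibitors from 0.25 µM upward. With the JAK3 inhibitor its level was 7.35 and 7.56 at 0.25 µM, 7.22 and 7.39 at 1 µM and 6.76 and 7.43 at 4 µM. With the JAK1 inhibitor it was 7.79 at 0.0625 µM, 7.24 and 7.25 at 0.25 µM, 7.17 and 7.41 at 1 µM and 7.20 at 4 µM. All 12 inhibitor samples lay below the lowest IL-2 sample, and several lay within the untreated range. The difference from IL-2 was -1.04 ± 0.19, -1.19 ± 0.19 and -1.41 ± 0.20 for the 3 JAK3 inhibitor doses (adjusted p = 0.00151, 0.000283 and 7.05e-05). For the JAK1 inhibitor it was -1.26 ± 0.19, -1.21 ± 0.19 and -1.30 ± 0.25 at 0.25, 1 and 4 µM (adjusted p = 0.000928, 0.000294 and 0.00326), and -0.71 ± 0.25 (adjusted p = 0.312) in the single sample at 0.0625 µM. Set against the rise with IL-2, 24%, 13% and -2% of that rise was left with the JAK3 inhibitor and 49%, 9%, 12% and 6% with the JAK1 inhibitor, in order of dose, where a negative value means a mean below untreated. Leaving out 1 sample ended the call at 0.25 µM only: without replicate 1 for the JAK3 inhibitor (-0.92, adjusted p = 0.0971) and without replicate 2 for the JAK1 inhibitor (-1.26, adjusted p = 0.0614). Without JAK3 inhibitor 4 µM replicate 1, the lowest of all samples for Jun, the difference at that dose was -1.07 (adjusted p = 0.00339). Beside the Jun values, 12, 12 and 9 of 14 NK markers fell over the 3 JAK3 inhibitor doses, and 0, 0, 9 and 8 over the 4 JAK1 inhibitor doses. Of 9 heat shock genes, 4, 5 and 5 fell with the JAK3 inhibitor and 0, 4, 4 and 4 with the JAK1 inhibitor. Their part in the Jun differences was not tested.

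Egr1 fell at all 3 JAK3 inhibitor doses and Egr2 at 1 and 4 µM, while neither passed at the 2 lower JAK1 inhibitor doses. With the JAK3 inhibitor, Egr1 was at 6.64 and 6.81, then 6.41 and 6.40, then 6.02 and 6.29 over the 3 doses. With the JAK1 inhibitor it was at 7.20 at 0.0625 µM, 7.03 and 7.30 at 0.25 µM, 6.75 and 6.71 at 1 µM and 6.28 at 4 µM. Of the samples at 0.0625 and 0.25 µM, replicate 2 at 0.25 µM sat within the IL-2 range of 7.26 to 7.59 and the others below it, all above every untreated sample. The sample at 4 µM sat within the untreated range of 5.80 to 6.52. Its differences from IL-2 were -0.66 ± 0.18, -0.98 ± 0.18 and -1.23 ± 0.18 with the JAK3 inhibitor (SE, adjusted p = 0.031, 0.0011 and 0.000146), and at 4 µM -1.10 without replicate 1 (adjusted p = 0.00481). For the JAK1 inhibitor they were -0.19 ± 0.23 and -0.22 ± 0.18 at the lower doses (adjusted p = 0.768 and 0.697), and -0.66 ± 0.18 and -1.11 ± 0.23 at 1 and 4 µM, where it fell (adjusted p = 0.0306 and 0.00763). The share of the IL-2 rise left was 45%, 18% and -3% with the JAK3 inhibitor and 84%, 82%, 45% and 7% with the JAK1 inhibitor. Its calls at JAK3 inhibitor 0.25 µM and JAK1 inhibitor 1 µM were lost without either of their own replicates (adjusted p of 0.184 and 0.377, and of 0.145 and 0.417) and without IL-2 replicate 2, 3 or 4.

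Egr2 read 6.82 and 6.63, then 6.37 and 6.40, then 6.03 and 6.42 over the JAK3 inhibitor doses. The JAK1 inhibitor samples read 7.58 at 0.0625 µM, 7.22 and 7.62 at 0.25 µM, 6.87 and 6.61 at 1 µM and 6.50 at 4 µM. The single sample at 0.0625 µM and replicate 2 at 0.25 µM were above every IL-2 sample. Egr2 fell at JAK3 inhibitor 1 and 4 µM, with differences of -0.95 ± 0.19 and -1.11 ± 0.20 (SE, adjusted p = 0.00251 and 0.000795), and missed the threshold at 0.25 µM (-0.61 ± 0.19, adjusted p = 0.0691). For the JAK1 inhibitor no dose passed against IL-2: the differences were 0.25 ± 0.25, 0.09 ± 0.19, -0.59 ± 0.19 and -0.84 ± 0.25 in order of dose (adjusted p = 0.7, 0.913, 0.0815 and 0.0698). Of the IL-2 rise, 33%, -4% and -22% was left with the JAK3 inhibitor and 127%, 110%, 35% and 8% with the JAK1 inhibitor. The call at JAK3 inhibitor 1 µM was lost without either of that group's replicates (-0.93 and -0.97, adjusted p = 0.0635 and 0.0586). Without JAK3 inhibitor 4 µM replicate 1 the difference at that dose was -0.92 (adjusted p = 0.0211). The calls missed at JAK3 inhibitor 0.25 µM and JAK1 inhibitor 4 µM were made without IL-2 replicate 1 (adjusted p = 0.0454 and 0.0482), untreated replicate 2 (0.0478 and 0.0407), untreated replicate 3 (0.0172 and 0.0137) or either JAK3 inhibitor 4 µM replicate (0.0436 and 0.0437). The one missed at JAK1 inhibitor 1 µM was made without untreated replicate 3 (-0.59, adjusted p = 0.021). Apart from IL-2 replicate 1, the samples left out belong to neither group compared. Without them the difference stayed at -0.61 at JAK3 inhibitor 0.25 µM and lay between -0.87 and -0.84 at JAK1 inhibitor 4 µM, so it was mainly the estimated spread that changed. The NK marker mean moved in the same groups. It was 8.95 and 8.74 to 8.96 at JAK1 inhibitor 0.0625 and 0.25 µM, and 7.82 to 7.85 at JAK3 inhibitor 0.25 µM, and its part in these results was not tested.

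**Figure D4:**
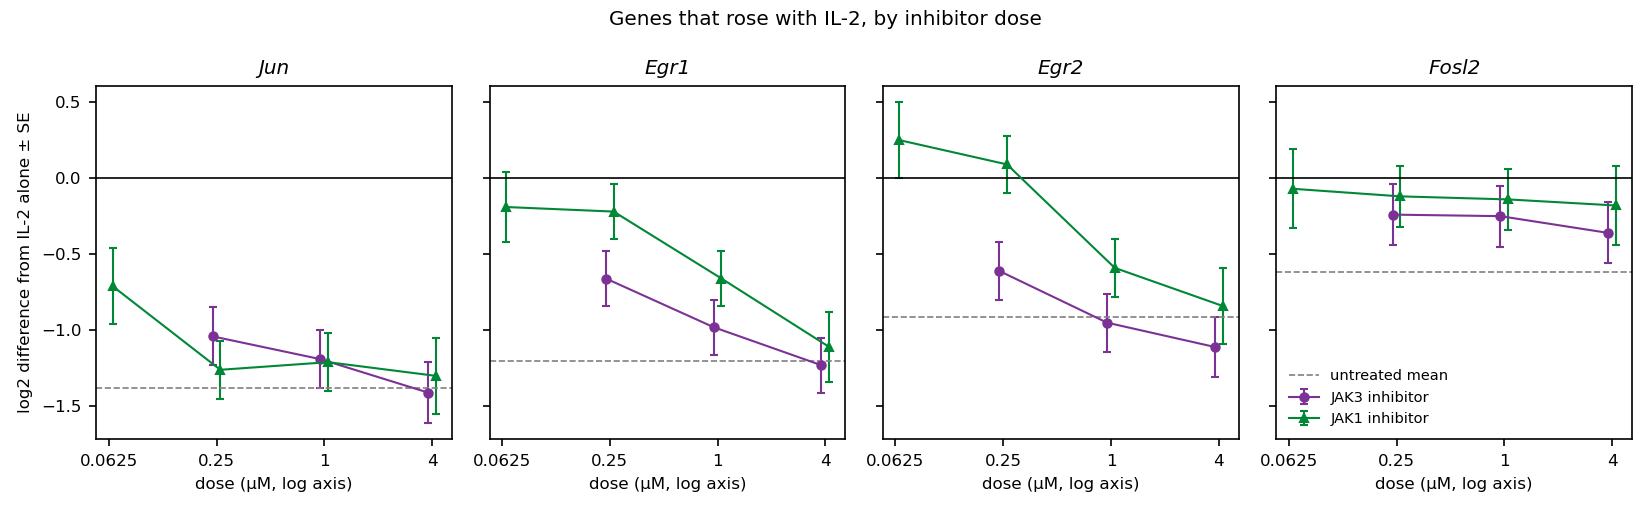
Log2 difference from IL-2 alone, with its SE (y axis), against inhibitor dose in µM (log x axis) for the 4 genes that rose with IL-2. Circles are the JAK3 inhibitor, triangles the JAK1 inhibitor, the solid line is IL-2 alone and the dashed line the untreated mean. At 0.25 µM of the JAK1 inhibitor Jun stands at -1.26 while Egr1 and Egr2 stand at -0.22 and 0.09.

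At JAK1 inhibitor 0.25 µM, 9% of the IL-2 rise was left for Jun, 82% for Egr1 and 110% for Egr2, and both intensity sets showed this order. Within the high-intensity set the differences from IL-2 were -1.34 for Jun, -0.29 for Egr1 and -0.02 for Egr2. Within the low-intensity set they were -1.17, -0.15 and 0.20. At JAK3 inhibitor 0.25 µM the corresponding values were -1.23, -0.69 and -0.43 in the high-intensity set and -0.86, -0.64 and -0.80 in the low-intensity set. Whether the genes differ from each other in these responses was not tested.

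The 2 inhibitors were compared directly at the 3 doses they share, for all 10 members, with p-values adjusted over 19752 genes at each dose. No member passed at any dose. At 0.25 µM 0.451% of genes passed in either direction. Unadjusted p there was under 0.05 for 3 members, with the share of all genes not counted. JAK1 minus JAK3 inhibitor, the difference was 0.70 for Egr2 (95% interval 0.25 to 1.15, adjusted p = 0.263) and 0.44 for Egr1 (0.02 to 0.87, adjusted p = 0.716). For Atf3 it was -0.83 (-1.35 to -0.31, adjusted p = 0.233). These differences had the same sign within both sets: 0.41 and 1.00 for Egr2, 0.39 and 0.49 for Egr1 and -1.11 and -0.54 for Atf3, high-intensity set first. Atf3 passed when either JAK3 inhibitor 4 µM replicate was left out (-0.83, adjusted p = 0.0415), which changes only the estimated spread. For Jun the difference at 0.25 µM was -0.21 (-0.67 to 0.24). At 1 and 4 µM 0% of genes passed and no member had an unadjusted p under 0.05. The intervals there were -0.47 to 0.44 and -0.45 to 0.66 for Jun, -0.11 to 0.75 and -0.40 to 0.65 for Egr1, and -0.09 to 0.81 and -0.28 to 0.83 for Egr2, and the EGR differences seen at 0.25 µM lie within them. These p-values do not show that the inhibitors act alike. Beside these values, 5 of 14 NK markers were higher and 5 of 14 macrophage and monocyte markers lower with the JAK1 inhibitor at 0.25 µM.

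A slope over dose, per 4-fold step, was fitted for each inhibitor. Over the 4 JAK1 inhibitor doses Egr2 fell by 0.39 ± 0.09 per step (adjusted p = 0.0304), the only member to pass, and 1.96% of genes fell. The lowest and highest of these doses, 0.0625 and 4 µM, had 1 sample each, and neither could be left out in turn. With sample medians subtracted the Egr2 slope missed the threshold (-0.35, adjusted p = 0.0701). Egr1 had a slope of -0.32 ± 0.09 (adjusted p = 0.0579), Fos of 0.21 ± 0.06 (adjusted p = 0.0794) and Jun of -0.17 ± 0.09 (adjusted p = 0.308). Egr1 passed without untreated replicate 2 (-0.32, adjusted p = 0.0262), untreated replicate 3 (0.0151) or either JAK3 inhibitor 4 µM replicate (0.0393). Over the 3 JAK3 inhibitor doses no member passed and 0.152% of genes did in either direction. The slopes of Egr1 and Egr2, -0.28 ± 0.11 and -0.25 ± 0.11, were the 2 with an unadjusted p under 0.05 (adjusted p = 0.448 and 0.522).

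At the highest dose no member differed from untreated cells with either inhibitor. In these 2 comparisons 0% of genes passed, and no member had an unadjusted p under 0.05. For the JAK3 inhibitor at 4 µM the differences were -0.03 for Jun (-0.45 to 0.39), -0.03 for Egr1 (-0.43 to 0.36) and -0.20 for Egr2 (-0.62 to 0.22). For the single JAK1 inhibitor sample they were 0.08 (-0.45 to 0.61), 0.09 (-0.41 to 0.59) and 0.08 (-0.45 to 0.60). Fosl2 differed by 0.26 (-0.18 to 0.70) and 0.45 (-0.10 to 1.00). With intervals this wide, a small remainder of the IL-2 response was not detectable with this number of arrays.

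Among the Fos subunits, the Fosl2 mean lay between those of untreated and IL-2 cells in every inhibitor group, and no difference from IL-2 passed. Its level was 8.07 and 7.96, then 7.85 and 8.16, then 7.72 and 8.06 over the JAK3 inhibitor doses, and between 8.07 and 8.20 in all 6 JAK1 inhibitor samples. The differences from IL-2 ranged from -0.36 ± 0.20 (JAK3 inhibitor 4 µM, adjusted p = 0.349) to -0.07 ± 0.26 (JAK1 inhibitor 0.0625 µM, adjusted p = 0.937). Of its IL-2 rise, 62%, 61% and 42% was left with the JAK3 inhibitor and 89%, 81%, 78% and 72% with the JAK1 inhibitor. The value at JAK3 inhibitor 4 µM rested on replicate 1, without which the difference from IL-2 was -0.19 (adjusted p = 0.721). In the high-intensity set, 3 samples (JAK3 inhibitor 0.25 µM and JAK1 inhibitor 0.25 and 1 µM, replicate 1 of each) carried one identical deposited Fosl2 intensity of 776.3, so their order is not known.

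Fos was higher with JAK3 inhibitor 1 µM than with IL-2. It read 5.54 and 5.79 there, against 5.17, 5.06, 5.09 and 5.25 with IL-2 and 5.45, 5.37 and 5.17 in untreated cells. The rise was 0.52 ± 0.13 (SE, adjusted p = 0.0151). It was lost without that group's replicate 2 (0.38, adjusted p = 0.423), and without IL-2 replicate 2 (0.49, 0.0566) or 3 (0.50, 0.0526). At JAK3 inhibitor 0.25 µM and at JAK1 inhibitor 1 and 4 µM the differences were 0.26, 0.35 and 0.31 (adjusted p = 0.425, 0.16 and 0.419), and at JAK3 inhibitor 4 µM the difference was 0.07 (adjusted p = 0.836). Neutrophil markers moved in the same groups: 7 of 14 rose at JAK3 inhibitor 1 µM, where their mean was 8.33 to 8.67 against 7.60 to 7.82 with IL-2, and their part in the Fos rise was not tested. Fos was lowest, at 4.86, in the single JAK1 inhibitor 0.0625 µM sample. Fosb passed in no comparison, and its 9 group means lay between 5.85 and 6.32.

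Of the Jun relatives, Junb had the narrowest range of the 10 members, with group means between 6.92 and 7.13, a span of 0.21, against 1.41 for Jun. Junb encodes an AP-1 subunit that binds DNA like Jun and transactivates less strongly. Its largest difference from IL-2 was 0.14 ± 0.22, and 3 high-intensity samples shared one deposited value of 423.5. Jund, a broadly expressed subunit, read 7.57, 8.23, 8.08 and 8.13 with IL-2, with replicate 1 below the rest, and 7.91, 7.62 and 7.71 untreated. Its group means lay between 7.72 and 8.00 apart from the single JAK1 inhibitor 0.0625 µM sample at 7.29 (-0.71 ± 0.23 from IL-2, adjusted p = 0.286).

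Atf3 passed in no comparison with IL-2, but several groups lay above it. It read 8.37 and 8.21 at JAK3 inhibitor 0.25 µM, 8.15 and 8.26 at 1 µM and 7.55 and 8.53 at 4 µM. Over the JAK1 inhibitor doses it read 7.65, then 7.26 and 7.67, then 8.37 and 8.08, and 7.73 at 4 µM. Samples at JAK3 inhibitor 0.25 and 1 µM and at JAK1 inhibitor 1 µM were all above every IL-2 sample, with differences of 0.65 ± 0.21, 0.57 ± 0.21 and 0.59 ± 0.21 (adjusted p = 0.0982, 0.157 and 0.152). The replicates at JAK3 inhibitor 4 µM had an SD of 0.69. Without replicate 1 Atf3 was 0.90 higher than with IL-2 (adjusted p = 0.0129), and without replicate 2 it differed by -0.08. Leaving out either of those replicates also brought the 3 other differences under the threshold (adjusted p = 0.0161, 0.0315 and 0.0302) with the differences themselves unchanged. The macrophage and monocyte marker mean was at 7.56 to 7.61 and 7.67 to 7.70 at JAK3 inhibitor 0.25 and 1 µM, 7.55 to 7.66 at JAK1 inhibitor 1 µM, and 6.90 to 6.97 at JAK1 inhibitor 0.25 µM. Its part in the Atf3 levels was not tested.

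Nr4a1 did not pass in any inhibitor group. It read 8.40 and 8.29, then 8.09 and 8.16, then 7.67 and 8.13 over the JAK3 inhibitor doses, and 8.38, then 8.02 and 8.44, then 8.47 and 8.29, then 8.09 with the JAK1 inhibitor. The largest difference from IL-2 was -0.70 ± 0.22 at JAK3 inhibitor 4 µM (adjusted p = 0.0683). It passed when IL-2 replicate 1 (-0.78, adjusted p = 0.0339), untreated replicate 2 (-0.77, 0.00798), untreated replicate 3 (-0.72, 0.0176) or JAK3 inhibitor 4 µM replicate 2 (-0.93, 0.038) was left out. Without JAK3 inhibitor 4 µM replicate 1 it was -0.46 (adjusted p = 0.342).

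In order of group means, Jun was highest with IL-2 (8.50), followed by the single JAK1 inhibitor 0.0625 µM sample (7.79) and JAK3 inhibitor 0.25 µM (7.46). The remaining 6 groups lay between 7.09 and 7.31 and neighbours differed by at most 0.08. Apart from JAK1 inhibitor 0.25 µM, with an SD of 0.01, the replicated groups among them had SDs of 0.11 to 0.47. Egr1 and Egr2 fell into an upper and a lower range. For Egr1, IL-2 and the 2 lower JAK1 inhibitor doses had means of 7.17 to 7.39 and all other groups 6.16 to 6.73. For Egr2 the same 3 groups had 7.33 to 7.58 and the others 6.22 to 6.74. Nr4a1 means lay within 7.90 to 8.60, with no gap between neighbours above 0.22.

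Across the 19 scale-adjusted samples, which share the IL-2 and inhibitor groups and the intensity correction, Egr1 and Egr2 had a Pearson r of 0.94. Egr1 had 0.81 with Nr4a1, 0.80 with Jun and 0.79 with Fosl2, while Jun and Egr2 had 0.67. Fos ran against Egr2 (-0.64) and Egr1 (-0.52). Atf3 and Junb had 0.73. These values are descriptions over samples of one experiment. Measured the same way over all 19752 genes, the genes most like Jun were Cdk6 (0.97) and Cd69 (0.96), those most like Egr1 were Larp1 (0.96) and Fam102a (0.96), and those most like Egr2 were Tnfrsf18 (0.96) and Gramd1b (0.96). For Fosl2 they were Unc13d and Nup188 (both 0.95), for Nr4a1 Srp72 (0.93) and Dnajc11 (0.92), and for Atf3 Fnip2 (0.93) and Tmem43 (0.91). For the other members they were, for Jund Ppp2cb (0.89) and Yipf6 (0.86), for Fosb Gsdma (0.85) and Msx3 (0.79), for Fos Lamp2 (0.84) and Pcyt1a (0.82), and for Junb Slc48a1 (0.84) and Tet3 (0.83).

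The other EGR and NR4A genes and the NAB corepressors, which bind EGR proteins, gave 3 rises among 6 with IL-2 and no fall. Nr4a3 and Nr4a2, the other two NR4A receptors, rose by 1.12 ± 0.18 and 1.03 ± 0.16 (SE, adjusted p = 0.000224 and 0.000225), and Egr3 by 0.64 ± 0.16 (adjusted p = 0.0104). Egr4, Nab1 and Nab2 differed by -0.18, 0.16 and 0.11 and did not pass. Egr3, Nr4a2 and Nr4a3 fell at JAK3 inhibitor 1 µM, with differences from IL-2 of -0.64, -0.63 and -0.77 (adjusted p = 0.0304, 0.0441 and 0.0215). At 4 µM these were -0.77, -0.96 and -1.02 (adjusted p = 0.0097, 0.00263 and 0.00319), and Nab1 fell too (-0.63, adjusted p = 0.00541). For the JAK1 inhibitor, none passed at 0.0625 or 0.25 µM, where Nr4a2 differed by 0.29 and 0.23 and Nr4a3 by 0.12 and 0.01. Nr4a3 fell at 1 µM (-0.85, adjusted p = 0.0134) and Nr4a2 at 4 µM (-0.95, adjusted p = 0.0321). The median of the 6 was 0.40 with IL-2, -0.70 at JAK3 inhibitor 4 µM and -0.42 at JAK1 inhibitor 4 µM, against all-gene medians of -0.01, -0.04 and -0.10. The shares of all genes that rose with IL-2 or fell at each inhibitor dose are those given above for the members.

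Among 24 measured AP-1 partners and related bZIP genes of 25 listed, 7 rose and 1 fell with IL-2, as did 6.56% and 2.59% of all genes. Fosl1, the Fos-family subunit Fra-1, rose by 1.22 ± 0.15 (adjusted p = 1.08e-05) and Nfil3, a bZIP factor needed for NK cell development, by 1.37 ± 0.21 (adjusted p = 0.000133). Crem rose by 0.70 ± 0.14 and Maff by 0.61 ± 0.13 (adjusted p = 0.00163 and 0.00267). Over the 3 JAK3 inhibitor doses 3, 3 and 5 of the 24 fell and 0, 2 and 2 rose, and over the 4 JAK1 inhibitor doses 0, 0, 3 and 4 fell and 0, 0, 2 and 0 rose. Of all genes, 2.26%, 3.69% and 4.50% fell and 2.74%, 2.86% and 3.01% rose with the JAK3 inhibitor, and at JAK1 inhibitor 1 µM 2.31% fell and 2.85% rose. Fosl1 fell at all 3 JAK3 inhibitor doses, with differences of -0.96, -1.08 and -1.40 (adjusted p = 0.00112, 0.00024 and 2.08e-05). At the lower JAK1 inhibitor doses its differences were -0.17 and -0.56 (adjusted p = 0.794 and 0.101), and it fell at 1 and 4 µM (-0.88 and -1.60, adjusted p = 0.0024 and 0.000137).

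Of 8 genes for serum response factor, its ternary complex partners and coactivators, Srf itself rose with IL-2 (0.71 ± 0.17, adjusted p = 0.00843) and none fell. It passed in no comparison of an inhibitor with IL-2, with differences from -0.40 to 0.11. Of 16 measured MAP kinase cascade genes (23 listed), 2 rose and 1 fell with IL-2, against 6.56% and 2.59% of all genes. Nras, a small GTPase, rose by 0.57 ± 0.15 (adjusted p = 0.0223) and the kinase gene Map3k8 by 0.55 ± 0.14 (adjusted p = 0.0127). Rps6ka5, which encodes the kinase MSK1, fell by 0.88 ± 0.15 on the log2 scale (adjusted p = 0.000352) and rose with the JAK3 inhibitor by 0.95, 0.86 and 0.75 (adjusted p = 0.00112, 0.00203 and 0.00827). It also rose by 0.91 and 0.87 at JAK1 inhibitor 1 and 4 µM (adjusted p = 0.00153 and 0.0267).

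Of 35 other immediate early genes, 8 rose and 1 fell with IL-2, against 6.56% and 2.59% of all genes, and their median was -0.01, equal to that of all genes. Ptgs2, the inducible cyclooxygenase, rose by 2.24 ± 0.22 and the activation marker Cd69 by 1.88 ± 0.18 (both adjusted p = 6.07e-07). Gadd45g rose by 1.40 ± 0.19 (adjusted p = 3.88e-05), and Rgs2, a regulator of G protein signalling, fell by 1.18 ± 0.15 (adjusted p = 1.24e-05). All 4 moved the other way at JAK1 inhibitor 0.25 µM, where Egr1 and Egr2 did not pass: the differences were -1.72 for Ptgs2, -1.80 for Cd69, -1.61 for Gadd45g and 0.93 for Rgs2 (adjusted p = 0.000632, 7.6e-05, 0.000392 and 0.00377). At JAK3 inhibitor 0.25 µM, where Egr1 fell and Egr2 did not pass, they differed by -1.59, -1.75, -1.33 and 1.30 (adjusted p = 0.000296, 1.32e-05, 0.000514 and 3.44e-05). In all, 7 of the 35 fell and 5 rose at JAK3 inhibitor 1 µM, against 3.69% and 2.86% of all genes, and 4 fell and 4 rose at JAK1 inhibitor 1 µM, against 2.31% and 2.85%.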

How the data were processed

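Per the submitters' processing notes, the arrays were processed with Affymetrix Power Tools and RMA; no version, setting or genome build is given in the sources used here. Linear intensities per probe set were deposited by the authors (24922 probe sets, 19 samples, no missing value), and log2 of the deposited intensities was used here. Gene names came from the platform annotation: 21425 probe sets had 1 symbol, 1399 several and 2098 none, and the brightest probe set stood for each of 19752 genes. limma 3.58.1 in R 4.3.3 fitted a mean per group plus a term for the intensity set (samples above or below the middle of the range of log2 medians), with an intensity trend in eBayes and Benjamini-Hochberg adjustment over all genes (threshold 0.05, 9 residual degrees of freedom). A scale-adjusted value is the log2 value minus the fitted set term. The fit was tested on simulated data. The members and gene lists were chosen with earlier results of these data known, so no list count is independent evidence of its direction.

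Named genes are the 10 members, for each the 2 genes with the highest Pearson r over 19 samples (predicted and microRNA genes passed over), up to 4 genes with the smallest p among those of each pathway list that passed with IL-2, and all EGR, NR4A and NAB relatives. Alternatives were quantile normalization, subtracted sample medians, the form of the sample title in place of the intensity set, no trend, the compared groups alone, each intensity set alone, the replicate number as a block, a filter on the dimmest 25% of genes, the mean of a gene's probe sets, and leaving out each sample. The array number limits the precision. Figures were drawn with matplotlib 3.10.9.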

Additional observations from a re-analysis of the deposited data

How the results depend on the processing

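In the report, 19 member results passed the threshold. Over up to 29 alternatives each, none of these turned its direction, and Jun and Egr1 at JAK3 inhibitor 4 µM against IL-2 passed in every one. That group had 28 alternatives, since it had no sample in the high-intensity set and could not be fitted there. They included the title form, under which 44.9% of all genes fell at that dose. Passing in every one therefore does not show that these 2 results are firmer than the others. A further 21 results passed in at least 1 alternative. One result turned: Fos at JAK3 inhibitor 4 µM against IL-2 was -1.04 with the title form in place of the intensity set, which puts 1 sample with the other scale. The counts below are of the 10 members, and the cause of a changed count was not tested unless stated. Fits within a single set had fewer samples and left most inhibitor groups with 1. Where they gave a count of 0, fewer genes of the whole array passed too, so that 0 says little about the members. With the title form 0.456% and 0.856% of all genes passed at JAK3 inhibitor 0.25 and 1 µM against IL-2. The title form shares were 0.127%, 0.678% and 0.567% at JAK1 inhibitor 0.25, 1 and 4 µM and 0.132% for the JAK1 inhibitor slope. With subtracted medians 2.39% passed for that slope. A percent in parentheses is the share of all genes that passed in either direction under that setting.

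IL-2 against untreated (4 members): 0 within the high-intensity set, 1 with the title form (1.36%), 3 to 5 leaving out a sample. JAK3 inhibitor 0.25 µM against IL-2 (2): 4 with the compared groups alone (11.4%), 4 with quantile normalization (9.04%), 0 within either set and with the title form, 0 to 4 leaving out a sample. JAK3 inhibitor 1 µM (4): 0 within either set and with the title form, 2 to 5 leaving out a sample. JAK3 inhibitor 4 µM (3): 6 with the title form, where 44.9% of all genes fell and the all-gene median was -0.87, so this count says little about the members, and 3 to 4 leaving out a sample. JAK1 inhibitor 0.25 µM (1): 0 within either set and with the title form, 0 to 1 leaving out a sample. JAK1 inhibitor 1 µM (2): 4 with the compared groups alone (10.6%), 4 with quantile normalization (9.20%), 0 within either set and with the title form, 1 to 3 leaving out a sample. JAK1 inhibitor 4 µM (2): 4 with the compared groups alone (8.83%), 0 within the low-intensity set and with the title form, 2 to 3 leaving out a sample. JAK3 inhibitor 4 µM against untreated (0): 1 with the title form (11.1%). JAK1 against JAK3 inhibitor at 0.25 µM (0): 3 with the compared groups alone (5.64%), 1 with quantile normalization (1.51%), 0 to 1 leaving out a sample. JAK1 inhibitor slope (1): 4 with the compared groups alone (9.57%), 3 with quantile normalization (5.02%), 0 with subtracted medians, within the low-intensity set and with the title form, 1 to 2 leaving out a sample.

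Quantile normalization brought Atf3 under the threshold with IL-2 (-0.62, adjusted p = 0.00611).

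Over 38 same-numbered pairs, residuals correlated from -0.54 to 0.7 (median -0.01), with 16 over 0.1. These values cannot show whether replicate numbers pair the samples. In inhibitor groups with 1 sample in each set, replicate 1 was the high-intensity and replicate 2 the low-intensity sample. The set term therefore takes up much of a shared replicate effect, and the residuals of such a group mirror each other. With the replicate number as a block, 1 member passed for JAK1 against JAK3 inhibitor at 0.25 µM (Atf3, -0.83, adjusted p = 0.0193; 1.76%) and 3 for the JAK1 inhibitor slope (Egr2, Egr1 and Jun; 3.78%). Against IL-2, Atf3 passed under the block at JAK3 inhibitor 0.25 µM (1.00, adjusted p = 0.00742) and 1 µM (0.91, 0.0132) and at JAK1 inhibitor 1 µM (0.93, 0.0116). Under the block Nr4a1 passed with IL-2 (0.65, adjusted p = 0.00465), while Egr2 at JAK3 inhibitor 4 µM (-0.70, adjusted p = 0.236) and 1 µM, Fos at JAK3 inhibitor 1 µM, and Egr1 at JAK3 inhibitor 0.25 µM and JAK1 inhibitor 1 µM did not.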
